A study of Mus musculus with 24 samples.

Results

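The 10 genes Tubb3, Map2, Mapt, Nefl, Nefm, Nefh, Ina, Stmn2, Gap43 and Rbfox3, which build the cytoskeleton of nerve cells or mark their identity, were followed across H3K4m3-Seq libraries of mouse brain, heart, kidney and liver. They were chosen by symbol from the 27179 genes of the table, and comprise 4 neurofilament subunit genes, 4 microtubule genes, 1 growth cone gene and 1 gene for a nuclear protein. All 10 were present and all 10 had enough signal to be tested. H3K4m3-Seq is chromatin immunoprecipitation for trimethylated lysine 4 of histone H3, followed by sequencing. Each organ had been flash frozen, or fixed in formalin and embedded in paraffin (FFPE). The labels name no strain, age or genotype for the mice and no treatment other than preservation. They list 12 H3K4m3 samples, 4 frozen and 8 FFPE, while the values used here came in 8 columns, 1 for each organ and preservation type, each called a library below. Frozen tissue was crosslinked with formaldehyde before shearing, while FFPE tissue was freed of paraffin and heated in extraction buffer, so preservation and chromatin preparation cannot be told apart. Kits from 2 makers are named without saying which library each served.

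Neurons keep their long processes with filament systems that few other cells build in the same way. Neurofilaments are heteropolymers that set the diameter of axons, microtubules made with a neuronal beta-tubulin carry transport along axons and dendrites, and growth cone proteins steer outgrowth. Trimethylation of lysine 4 on histone H3 lies at the promoters of active and poised genes, and it does not measure the amount of RNA or protein. No source used here states which stretch of a gene was counted, so a value may hold reads from outside the promoter. Whether gene length bears on the levels or differences below was not tested. In a whole organ, a lower signal from fewer neurons and a lower signal per neuron cannot be told apart.

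Promoter sequences of 300 bases, from 250 before to 50 after a start site, were matched in RefSeq (GRCm38) for 4 of the 10 genes. They are shown because the mark sits at promoters, and because it is known to favour promoters rich in CpG, the dinucleotide printed in capitals. All 4 run 5′ to 3′ on the strand of the gene.

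Ina (chr19:47014431-47014730, plus strand): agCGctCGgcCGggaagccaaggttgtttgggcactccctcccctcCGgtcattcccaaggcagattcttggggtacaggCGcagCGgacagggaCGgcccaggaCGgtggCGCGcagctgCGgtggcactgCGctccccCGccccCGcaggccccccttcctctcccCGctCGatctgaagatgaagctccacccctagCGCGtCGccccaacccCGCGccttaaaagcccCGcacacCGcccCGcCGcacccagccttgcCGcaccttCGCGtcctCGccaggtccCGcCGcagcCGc

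Tubb3 (chr8:123411303-123411602, plus strand): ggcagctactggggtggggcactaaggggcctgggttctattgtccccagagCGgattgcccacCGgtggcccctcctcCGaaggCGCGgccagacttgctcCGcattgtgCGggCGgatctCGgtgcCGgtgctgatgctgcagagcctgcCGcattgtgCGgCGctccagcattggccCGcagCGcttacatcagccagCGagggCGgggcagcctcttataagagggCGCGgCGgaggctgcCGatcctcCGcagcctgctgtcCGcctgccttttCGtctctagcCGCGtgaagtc

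Map2 (chr1:66175079-66175378, plus strand): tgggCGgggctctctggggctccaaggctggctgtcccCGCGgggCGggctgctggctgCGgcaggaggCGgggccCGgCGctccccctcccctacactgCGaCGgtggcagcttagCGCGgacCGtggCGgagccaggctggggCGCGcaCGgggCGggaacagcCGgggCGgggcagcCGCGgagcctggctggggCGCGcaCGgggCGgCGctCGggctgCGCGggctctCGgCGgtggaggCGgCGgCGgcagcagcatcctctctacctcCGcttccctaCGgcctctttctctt

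Rbfox3 (chr11:118760992-118761291, minus strand): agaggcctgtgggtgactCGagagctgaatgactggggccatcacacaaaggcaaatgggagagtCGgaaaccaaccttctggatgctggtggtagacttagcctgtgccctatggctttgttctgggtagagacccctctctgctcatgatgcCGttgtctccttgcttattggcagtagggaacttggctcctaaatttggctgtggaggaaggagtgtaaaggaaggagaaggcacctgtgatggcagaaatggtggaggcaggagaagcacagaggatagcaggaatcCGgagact

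Ina had 32 CpG in this window, Tubb3 26 and Map2 37. Among 22132 promoters of tested genes the median was 13, and 87.4%, 77.4% and 92.7% of them held fewer CpG than Ina, Tubb3 and Map2. The Rbfox3 window held 4 CpG, with 23.3% of promoters holding fewer. That window belongs to a start site 150.6 kb inside the annotated gene, so other start sites of Rbfox3 are not described by it. The GC box letters GGGCGG were found on either strand in Ina, Tubb3 and Map2, with overlapping matches counted, and in 46.2% of all promoters. The letters TATAA were found in Tubb3 alone of the 4, and in 21.8% of all promoters. The letters of 2 stretches within RE1, the element bound by the repressor REST that silences neuronal genes outside the nervous system, were also searched on both strands. CAGCACC was found in Tubb3 and in 7.25% of all promoters. GGACAG was found in Ina, Tubb3 and Map2 and in 22.7% of all promoters. These are matches of letters, not sites shown to be bound.

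The libraries held between 1792394 and 5275085 recovered reads, with more in FFPE than in frozen tissue for all 4 organs. Reads per gene in the set ranged from 52 to 477 in brain and from 6 to 320 in the other organs, so the lower levels outside brain carry the larger counting error. The lowest count, 6 reads at Gap43 in frozen heart, has an exact Poisson 95% interval of 2.2 to 13.1 reads, which covers counting error only. Of the defining markers of each tissue, 20 of 22 other neuron genes had both brain libraries above all others, beside 7.56% of all tested genes. The same held in their own organ for 6 of 7 heart muscle genes, 6 of 7 kidney genes and 5 of 7 liver genes, and none of these markers was without reads in its own organ. Levels below are the deposited log2 values of normalized read shares (CPM). Passing means an adjusted p under 0.05 in limma, after Benjamini-Hochberg adjustment over 25680 tested genes. Since the labels tie no library to an animal, the p-values speak only to the scatter of these 8 libraries, part of which may be technical.

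H3K4m3 levels of the neuronal genes were higher in brain than in heart, kidney or liver, and for all 10 genes both brain libraries lay above all 6 others. Of all tested genes, 7.56% had that arrangement. Against the mean of the other organs, 9 of the 10 genes passed as higher in brain, beside 5.53% of all tested genes. The differences ran from 0.79 to 2.64 log2 units with a median of 1.74, against a median of -0.01 over all tested genes. Stmn2, Ina and Nefl stood 6.25-fold, 6.17-fold and 5.87-fold higher, whereas Mapt and Nefh stood 1.72-fold and 1.74-fold higher, and Nefh did not pass.

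**Figure D1:**
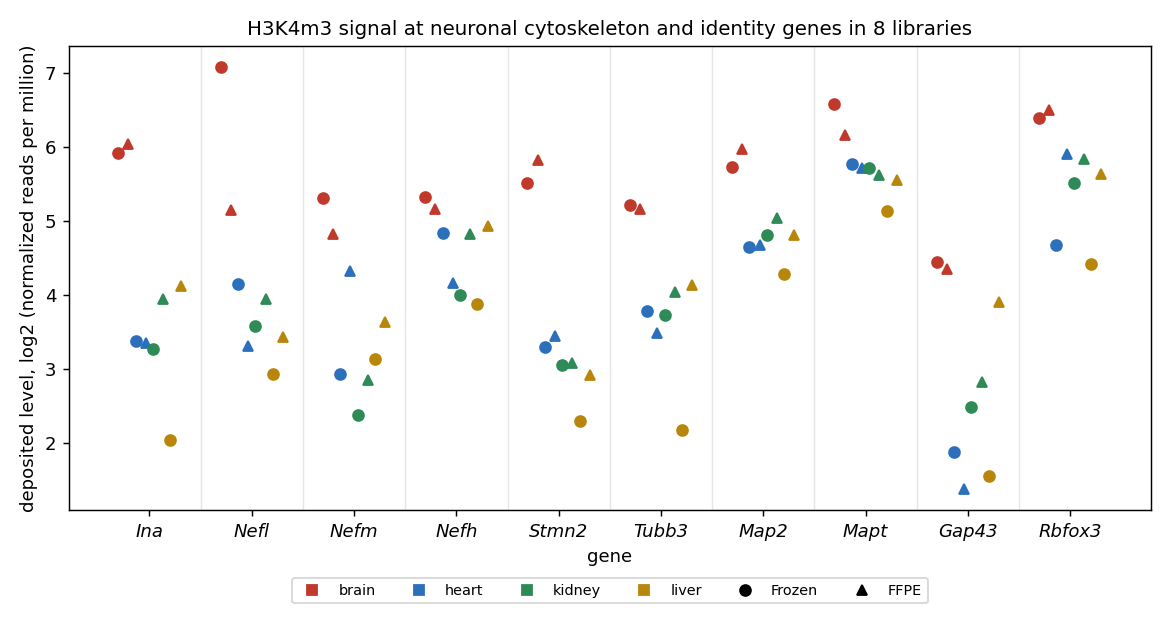
Deposited H3K4m3 level, as log2 CPM, on the vertical axis for the 10 genes on the horizontal axis. Each point is 1 library, coloured by organ, with circles for frozen and triangles for FFPE tissue; both brain points lie above the 6 others for each gene, by 2.07 at Stmn2 and by 0.22 at Nefh.

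Among the neurofilament genes, Ina and Nefl had the larger brain differences and Nefh the smallest. Ina encodes alpha-internexin, a filament subunit made early in neurons (gene ID 226180, GRCm38 chromosome 19, 47014681 to 47025327). Its level was 5.92 in frozen and 6.05 in FFPE brain, 3.38 and 3.36 in heart, 3.28 and 3.95 in kidney, and 2.04 and 4.12 in liver. The 2 brain libraries were close together and far above the rest, while frozen and FFPE liver lay at the 2 ends of the other libraries. The brain difference was 2.63 ± 0.39 (SE, 2 brain and 6 other libraries, adjusted p = 0.000553). Ina overlaps the gene Nt5c2 by 494 bases, and reads there cannot be assigned to either gene alone.

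Nefl encodes the light subunit, the core on which the other neurofilament subunits assemble (gene ID 18039, chromosome 14, 68083863 to 68089095). Its level was 7.08 in frozen brain but 5.15 in FFPE brain. In heart the frozen and FFPE levels were 4.15 and 3.32, in kidney 3.58 and 3.95, and in liver 2.94 and 3.44. Brain was separate from the other organs in both preservation types, though its 2 libraries differed from each other by more than any pair of libraries outside brain at this gene. Brain exceeded the other organs by 2.55 ± 0.41 (adjusted p = 0.00101).

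Nefm encodes the medium subunit and lies near Nefl on the same chromosome (gene ID 18040, 68119545 to 68125004). Its level was 5.31 in frozen and 4.83 in FFPE brain, 2.93 and 4.33 in heart, 2.38 and 2.86 in kidney, and 3.14 and 3.64 in liver. FFPE heart came nearest to brain, 0.50 log2 units below its lower library. Brain exceeded the other organs by 1.86 ± 0.39 (adjusted p = 0.00612). Nefm overlaps the noncoding gene A230070E04Rik by 1253 bases, and reads there cannot be assigned to one of them.

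Nefh encodes the heavy subunit, which is abundant in large myelinated axons (gene ID 380684, chromosome 11, 4938754 to 4948064). Its level was 5.33 in frozen and 5.16 in FFPE brain, 4.83 and 4.16 in heart, 4.00 and 4.83 in kidney, and 3.88 and 4.94 in liver. The highest library outside brain, FFPE liver, was 0.22 log2 units below the lower brain library. The brain difference of 0.80 ± 0.33 did not pass (adjusted p = 0.166), and it passed without FFPE liver, at 0.98 (adjusted p = 0.0245). Nefh overlaps Ap1b1, a subunit gene of a sorting adaptor complex, by 745 bases, and reads there cannot be assigned to either gene alone. Whether the overlap bears on the difference at Nefh was not tested.

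The microtubule genes were led by Stmn2, which encodes a stathmin that binds tubulin and acts in axon growth and repair (gene ID 20257, chromosome 3, 8509527 to 8561604). Its level was 5.51 in frozen and 5.82 in FFPE brain, 3.30 and 3.44 in heart, 3.06 and 3.09 in kidney, and 2.29 and 2.92 in liver. Brain stood apart by 2.07 log2 units from the nearest other library, the widest gap of the 10 genes. The brain difference was 2.64 ± 0.34 (adjusted p = 0.000182), rank 101 of 25680 tested genes. It was the only gene of the set that still passed without frozen brain.

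Tubb3 encodes the beta-tubulin by which neurons are commonly recognised (gene ID 22152, chromosome 8, 123411553 to 123422015). Its level was 5.22 in frozen and 5.17 in FFPE brain, 3.79 and 3.48 in heart, 3.73 and 4.05 in kidney, and 2.17 and 4.14 in liver. The 2 brain libraries lay close together, and frozen liver was far below every other library. For Tubb3 the brain difference came to 1.63 ± 0.41 (adjusted p = 0.0179).

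Map2 encodes a microtubule-associated protein of dendrites and cell bodies (gene ID 17756, chromosome 1, 66175202 to 66442583). Its level was 5.73 in frozen and 5.97 in FFPE brain, 4.65 and 4.68 in heart, 4.82 and 5.04 in kidney, and 4.28 and 4.81 in liver. The brain difference was 1.14 ± 0.22 (adjusted p = 0.00421). It was nearly the same in both preservation types, 1.15 among frozen and 1.12 among FFPE libraries.

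Mapt encodes tau, the microtubule-associated protein of axons (gene ID 17762, chromosome 11, 104229409 to 104332090). Its level was 6.58 in frozen and 6.16 in FFPE brain, 5.77 and 5.71 in heart, 5.72 and 5.63 in kidney, and 5.13 and 5.56 in liver. With 89 to 276 reads outside brain, its level there rested on more reads than that of most of the set. The brain difference of 0.79 ± 0.20 was the smallest that passed (adjusted p = 0.0211). It no longer passed in 6 of the 8 fits that left out 1 library, all except those without a liver library, with adjusted p from 0.0511 to 0.705, nor with no preservation term (adjusted p = 0.303).

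Gap43 encodes a protein of the growth cone membrane (gene ID 14432, chromosome 16, 42248552 to 42340651). Its level was 4.45 in frozen and 4.35 in FFPE brain, 1.88 and 1.38 in heart, 2.50 and 2.82 in kidney, and 1.56 and 3.91 in liver. It had the fewest reads of the set, 52 and 107 in the brain libraries and 6 to 64 elsewhere, and FFPE liver stood well above the rest outside brain. The brain difference was 2.06 ± 0.54 (adjusted p = 0.025). It was lost with scaling by total reads, at an adjusted p of 0.0556, with no preservation term in the fit, at 0.182, and without FFPE brain, frozen brain, FFPE heart or either kidney library, at adjusted p from 0.0505 to 0.632.

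Rbfox3 encodes the splicing regulator recognised by the NeuN antibody, a standard stain for neuronal nuclei (gene ID 52897, chromosome 11, 118489760 to 118911597). Its level was 6.40 in frozen and 6.50 in FFPE brain, 4.68 and 5.91 in heart, 5.52 and 5.84 in kidney, and 4.42 and 5.63 in liver. Every FFPE library was above the frozen library of its organ. For Rbfox3 the brain difference came to 1.11 ± 0.24 (adjusted p = 0.00773).

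The calls rested on both brain libraries, and calls over all tested genes also became fewer when 1 of them was left out. Without frozen brain 1 of the 10 genes passed, Stmn2, and without FFPE brain 5 passed, Nefl, Nefm, Stmn2, Ina and Rbfox3. Such a fit holds a single brain library, which is assumed to vary like the other groups. Without FFPE heart Tubb3, Mapt and Gap43 no longer passed, and without FFPE liver all 10 passed. With no preservation term in the fit 3 passed, Nefl, Stmn2 and Ina.

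Each organ was then set against brain on its own. Against liver 8 of the 10 genes passed as higher in brain, beside 6.72% of all tested genes, with a median of 1.67. Only Gap43, at 1.66 ± 0.66 (adjusted p = 0.132), and Nefh, at 0.83 ± 0.40 (adjusted p = 0.224), did not pass. Against heart 6 passed, beside 3.01% of all tested genes: Gap43, Map2, Nefl, Stmn2, Ina and Rbfox3, with Gap43 6.82-fold higher. Against kidney 4 passed, beside 3.52% of all tested genes: Nefl, Nefm, Stmn2 and Ina, with Stmn2 6.02-fold higher. Stmn2, Ina and Nefl therefore passed against each organ on its own, and Nefh passed against none.

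**Figure D2:**
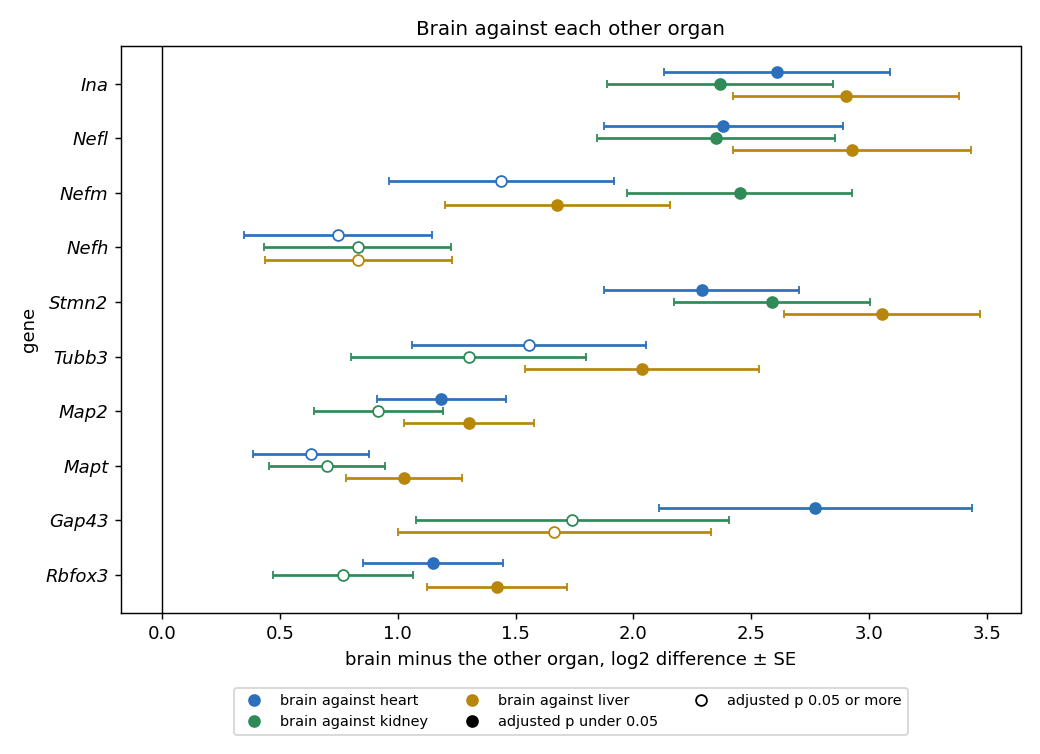
Log2 difference between brain and each other organ on the horizontal axis for the 10 genes, with bars of 1 SE from the fit of 8 libraries and filled points where the adjusted p is under 0.05. All 30 points lie right of 0, from 0.63 (Mapt against heart) to 3.05 (Stmn2 against liver).

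The counts against single organs rested on few libraries. Against heart, leaving out the FFPE or the frozen brain library left 3 and 0 genes, and leaving out the FFPE or the frozen heart library left 0 and 2. Against kidney, 0 passed without frozen brain, 2 without FFPE kidney and 1 without frozen kidney, but 8 without either liver library. Against liver, 1 passed without frozen brain and 5 without frozen liver.

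Outside brain the order of organs was not resolved. By mean level liver was lowest for 8 of the 10 genes, with kidney lowest for Nefm and heart lowest for Gap43. Kidney was second to brain for 5 genes, heart for 4 and liver for Gap43. The place of liver differed by preservation type. Among FFPE libraries it was lowest at Mapt, Stmn2 and Rbfox3, but highest outside brain at Tubb3, Nefh, Ina and Gap43. At Map2, Nefl and Nefm FFPE liver lay between heart and kidney. None of the 30 differences among heart, kidney and liver passed (limma, smallest adjusted p = 0.336, 1 of 30 at an unadjusted p under 0.05), and they ranged from -1.11 to 1.01. Of all tested genes, 0.962% passed between heart and kidney, 6.76% between heart and liver and 3.32% between kidney and liver. Without FFPE liver, Tubb3 passed between heart and liver, and Tubb3 and Ina between kidney and liver.

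Preservation was compared next, since the study set FFPE against frozen tissue in all 4 organs. The brain difference was positive for all 10 genes in both preservation types, and brain was the highest of the 4 organs each time. Of all tested genes, brain was highest for 25.2% in frozen and 27.2% in FFPE libraries. The median difference over the 10 genes was 2.23 among frozen and 1.25 among FFPE libraries. Nefl had a brain difference of 3.52 in frozen and 1.58 in FFPE tissue, and Nefm of 2.50 and 1.22. Stmn2 had 2.62 and 2.67, which are nearly equal.

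**Figure D3:**
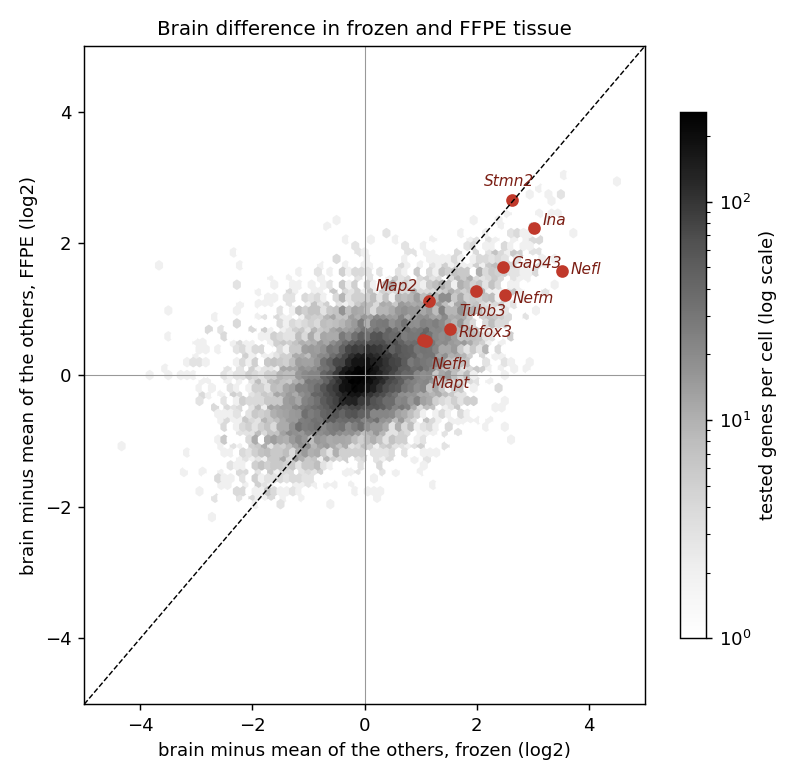
Brain minus the mean of the 3 other organs, in log2 units, among frozen libraries (horizontal axis) and FFPE libraries (vertical axis). Grey shading counts all tested genes, red points are the 10 genes and the dashed line marks equal values; the points lie in the upper right, with Stmn2 at 2.62 and 2.67 and Nefl furthest below the line at 3.52 and 1.58.

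A term for brain by preservation tested whether these differences were unequal. It rests on 2 residual degrees of freedom. With 1 library per organ and preservation type, these come from how FFPE minus frozen varied among heart, kidney and liver. A term that does not pass therefore cannot show that the differences were equal. No gene passed, of the 10 or of all tested genes (limma, 0%, 674 of all genes and 1 of the 10 at an unadjusted p under 0.05). Nefl had the largest value, -1.94 ± 0.69 with an unadjusted p of 0.0148 and an adjusted p of 0.9999. Of the 10 values 9 were negative, meaning a smaller brain difference in FFPE tissue, with a median of -0.74 against 0.01 over all tested genes. Nefm had -1.28 ± 0.75, and Stmn2, the gene with a positive value, 0.05 ± 0.72. A smaller difference in FFPE tissue was not confined to the 10 genes. Nsg2, another neuron identity gene, had 5.38 in frozen and 4.58 in FFPE brain. Its other frozen and FFPE levels were 2.57 and 3.83 in heart, 1.94 and 3.53 in kidney, and 1.56 and 3.38 in liver. Nova1, also a neuron identity gene, went the other way. Whether the 10 genes differ in this from other neuron genes was not tested.

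Across organs, 1 of the 10 genes passed between FFPE and frozen libraries, beside 37.8% of all tested genes, of which 16.5% were higher and 21.3% lower in FFPE tissue. Rbfox3 rose in FFPE tissue by 0.72 ± 0.21 (SE, 4 FFPE and 4 frozen libraries, adjusted p = 0.0167), with 0.11 in brain, 1.23 in heart, 0.32 in kidney and 1.21 in liver. It did not pass without either heart library or with precision weights (adjusted p from 0.0505 to 0.101). Nefl, at -0.47 ± 0.36 (adjusted p = 0.298) and at 0.01 without either brain library, passed as lower with quantile normalization, at -0.82 (adjusted p = 0.0385), and with precision weights, at -1.15 (adjusted p = 0.0139). The median over the 10 genes was 0.37, against 0.18 over all tested genes.

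Within organs, the FFPE library was above the frozen one for 4 of the 10 genes in brain, 4 in heart, 9 in kidney and all 10 in liver. Over all tested genes the shares were 51.5%, 52.2%, 52.9% and 53.7%. The medians were -0.07, -0.04, 0.33 and 0.85, against medians of 0.03, 0.05, 0.06 and 0.13 over all tested genes. In liver, Gap43 was 2.36, Ina 2.08 and Tubb3 1.97 log2 units higher in FFPE tissue, from 7, 10 and 11 reads in the frozen library to 64, 74 and 75. That direction in liver was not particular to the neuronal genes. Every heart muscle and kidney marker was also higher in FFPE than in frozen liver, such as Nkx2-5 at 3.44 and 1.11. The kidney marker Pax8 had 4.61 and 2.60. Every liver cell marker went the other way, such as Alb at 4.98 in FFPE and 7.02 in frozen liver. These are shares of reads from 1 library of each kind, compared without input libraries.

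**Figure D4:**
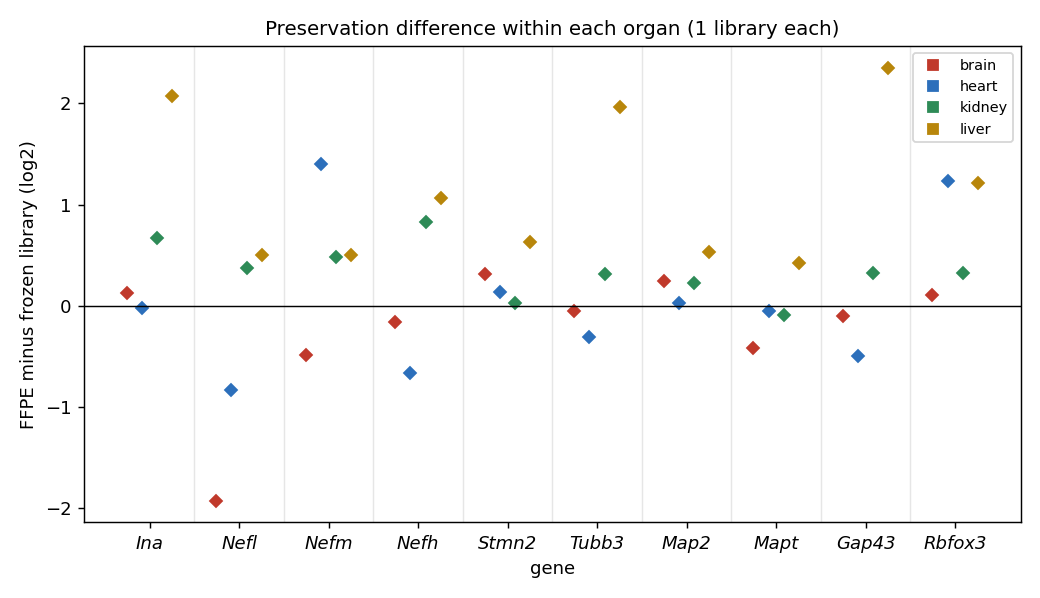
FFPE minus frozen level in log2 units on the vertical axis for the 10 genes, with 1 diamond per organ from 1 library of each kind. Liver diamonds lie above 0 for all 10 genes, up to 2.36 at Gap43, and the lowest diamond is Nefl in brain at -1.93.

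Related gene lists were then read in the same brain contrast, in which 5.53% of all tested genes passed as higher. Of 23 neuronal tubulin and microtubule regulator genes, 15 passed as higher in brain and 0 as lower, with a median of 1.35. Tubb4a, a beta-tubulin of brain, was 7.68-fold higher, Crmp1, a tubulin-binding protein of axon guidance, 5.09-fold, the doublecortin-like kinase Dclk1 3.36-fold and the kinesin motor Kif5c 2.66-fold. Tuba4a was at the other end, at 0.08 ± 0.26. Of 17 axon and growth cone membrane genes, 12 passed as higher and 0 as lower, with a median of 1.33. They included Cntnap1, which anchors myelin beside the node of Ranvier, at 4.03-fold, Cntn2, an axonal adhesion molecule, at 2.89-fold, the reticulon Rtn1 at 4.56-fold and Nfasc, an adhesion molecule of the axon initial segment, at 3.06-fold. Marcksl1 had a value of -0.64 ± 0.24 (adjusted p = 0.127).

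Among 22 other neuron identity genes, 20 passed as higher, beside 5.53% of all tested genes, with a median of 1.97. Grin1, the obligatory subunit of NMDA-type glutamate receptors, was 5.52-fold higher. The RNA-binding protein genes Elavl4, Celf4 and Elavl3 were 4.72-fold, 4.23-fold and 4.21-fold higher. Nova2, at 0.31 ± 0.17 (adjusted p = 0.358), and Camk2a, at 0.50 (adjusted p = 0.219), did not pass. Camk2a was named after its value was seen.

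Cytoskeleton genes that most cells use were read next. Of 17, 0 passed as higher in brain and 2 as lower, beside 4.53% of all tested genes that were lower, with a median of -0.03. The lower ones were the tubulins Tuba1c, at -2.15 ± 0.29, and Tubb6, at -0.93 ± 0.27. At the other end Stmn1, a widely expressed stathmin, had 0.79 ± 0.26 (adjusted p = 0.0797). Of 10 other intermediate filament genes, 0 passed as higher and 2 as lower, with a median of -0.36: the epithelial keratin Krt8 at -1.82 ± 0.32 and Nes, which encodes nestin of neural progenitors, at -1.18 ± 0.21. Gfap, the filament gene of astrocytes, had 0.39 ± 0.24 (adjusted p = 0.444). None of 9 genes for the repressor REST and its partners passed, and their median was -0.15, with the corepressor gene Rcor2 at 0.88 ± 0.48 (adjusted p = 0.339). In the FFPE contrast, 13 of the 17 widely used cytoskeleton genes passed as lower in FFPE tissue, with a median of -0.74, beside 21.3% of all tested genes. Of the 9 genes for REST and its partners 5 passed as lower and 1 as higher. The neuronal tubulin list had 3 of 23 higher and 1 lower, the axon list 3 of 17 higher and 3 lower, and the neuron identity list 2 of 22 higher and 0 lower, beside 16.5% higher over all tested genes. Of the 10 other intermediate filament genes 0 passed.

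Some markers of other brain cells moved with the brain contrast, and their part in the results was not tested. The summed level of 8 oligodendrocyte markers was 318 to 365 CPM in brain and 142.5 to 218 elsewhere. Of the 8 markers 4 passed as higher, beside 5.53% of all tested genes. They were Mbp, a myelin protein gene, at 3.1-fold, and the transcription factor genes Olig2, Sox10 and Olig1 at 2.54-fold, 2.28-fold and 1.78-fold. Olig1 was not lower in liver, with 5.75 in frozen and 5.10 in FFPE brain beside 5.74 and 5.76 in liver. Its difference came from heart and kidney. Cnp had the lowest value of the list, 0.33 ± 0.22 (adjusted p = 0.464). Of 8 astrocyte markers 2 passed as higher, Aldoc and Slc1a2, with sums of 323 to 325 in brain and 148 to 278 elsewhere. Aldh1l1, at -0.66 ± 0.28 (adjusted p = 0.182), and Gja1, at -0.44 ± 0.26 (adjusted p = 0.418), were lower in brain without passing. The remaining astrocyte markers had positive values that did not pass. Of 6 microglia markers 0 passed, with sums of 74.8 to 105 and 94.6 to 136. Of 10 markers of peripheral neurons and Schwann cells 1 passed, Sox10, which is also on the oligodendrocyte list, with sums of 138 to 184 in brain and 140.5 to 260 elsewhere. Phox2a was at the other end of that list, at -0.98 ± 0.34 (adjusted p = 0.0938), and the median of the list was -0.24. None of these markers was without reads in any library. For the 10 neuronal genes themselves the sums were 503 to 613 in brain and 124 to 238 elsewhere.

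**Figure D5:**
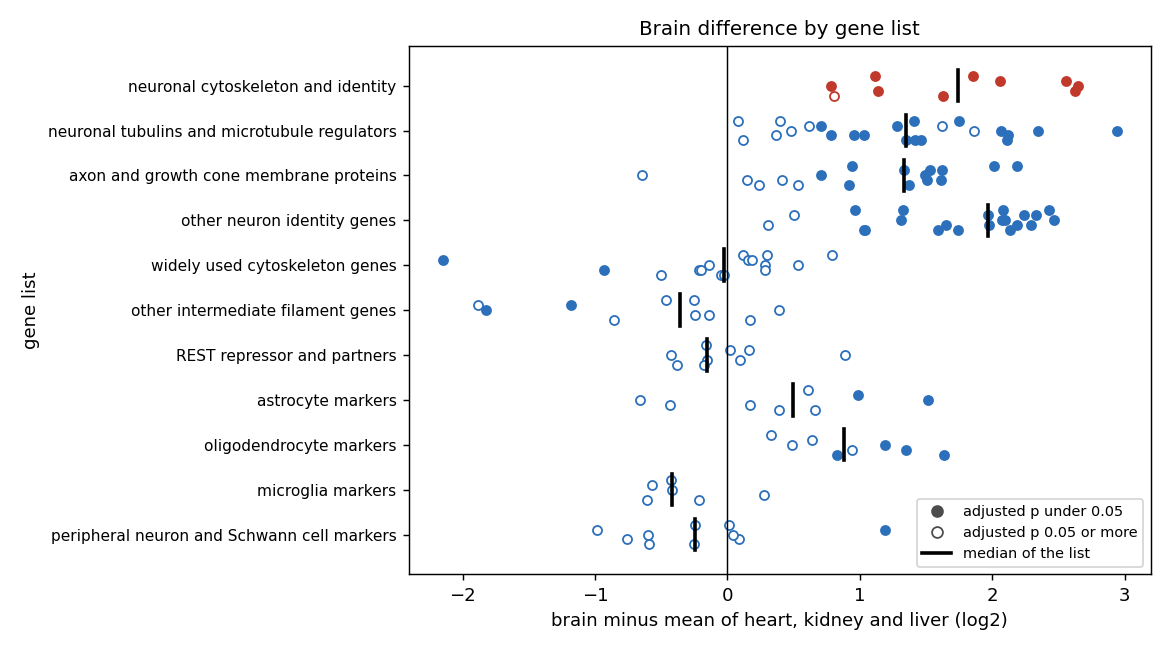
Brain minus the mean of heart, kidney and liver, in log2 units, for each gene (point) of 11 gene lists, with filled points where the adjusted p is under 0.05 and a black bar at the median of the list. The medians are 1.74 for the 10 neuronal genes (red), 1.97 for other neuron identity genes and -0.03 for widely used cytoskeleton genes.

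Genes beside the 10 in the genome were read in the same contrast. Of 11 overlapping or nearest genes that were tested, 3 passed as higher in brain, beside 5.53% of all tested genes, with a median of 0.18. Sppl2c, a protease gene 38.2 kb from Mapt, differed by 1.53 ± 0.40 (adjusted p = 0.0225). Mc1r, the melanocortin 1 receptor gene 0.81 kb from Tubb3, differed by 0.89 ± 0.26 (adjusted p = 0.0441). It lies on the side where Tubb3 starts, and whether the signals of Mc1r and Tubb3 are separate was not tested. Unc80, a sodium leak channel subunit gene 25.3 kb from Map2, differed by 0.86 ± 0.18 (adjusted p = 0.00674). Kansl1 lies 1.41 kb from Mapt on the other side and had 0.08 ± 0.17. Engase, 0.55 kb from Rbfox3 at the end away from its start, had 0.18 ± 0.19. Nt5c2, which overlaps Ina by 494 bases, had -0.07 ± 0.19, and Ap1b1, overlapping Nefh, had 0.21 ± 0.18. A230070E04Rik, overlapping Nefm, had 2.35 ± 0.71 (adjusted p = 0.0512) from 1 to 65 reads.

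The shape of the profile over 8 libraries was compared by the root mean square difference of centred log2 levels. Each of the 10 genes correlated with the mean of the other 9, with Pearson's r from 0.75 at Nefm to 0.99 at Ina. The value is a description over 8 libraries that share organs, depth and preservation. Both brain libraries were highest at all 10 genes, a pattern that by itself raises r. Genes outside the set correlated as closely, with r of 0.98 to 0.99 between the mean of the 10 and the 5 genes named next. The 5 genes outside the set nearest to its mean profile were Pcsk1n, Kcnip4, Zfhx2, Fbxo41 and Ermn, with differences of 0.124 to 0.142. Nearest to single genes were Nol4 to Stmn2 (0.185), Dlg2 to Map2 (0.077), Sptb to Mapt (0.111), Brsk1 to Tubb3 (0.185) and Garnl3 to Rbfox3 (0.122). Nearest to the others were Neurod6 to Nefm (0.213), 9430041J12Rik to Ina (0.269), Pld5 to Nefl (0.383), Pigz to Nefh (0.137) and Scg2 to Gap43 (0.397).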

How the data were processed

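H3K4m3-Seq values were used for 8 libraries, 1 per organ and preservation type. The authors deposited log2 values per gene. Bowtie2, featureCounts, limma and build mm10 appear, per the submitters' processing notes, without roles. No source used here states which stretch of a gene was counted or whether the FFPE values of an organ pool its 2 FFPE samples. Columns name no antibody and were taken as H3K4m3 from the titles of the table and series. Input libraries were not analysed here.

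Each value equals log2 of reads plus 0.5, as CPM of a scaled library size, and whole reads were recovered to within 0.001 for 100% of values. The scaling equals trimmed-mean (TMM) factors computed from these reads, between 0.856 and 1.13. Genes with a mean log2 value of at least 0 were tested (25680) with limma 3.58.1 in R 4.3.3, as organ plus preservation over 8 libraries with 3 residual degrees of freedom, checked on simulated data. Comparisons were brain against the mean of the others, all organ pairs, FFPE against frozen, and brain by preservation. The 10 genes and the gene lists were chosen with earlier results of these data known. Genes named from lists were drawn from up to 4 per list and direction with the smallest p among those passing and the 1 with the most opposite value. Gene positions and promoters are from RefSeq (GRCm38, the assembly that mm10 denotes). Motifs were likewise chosen with earlier results known. Alternatives were quantile normalization, TMM and total-read scaling, no filter, an offset of 1, precision weights, no preservation term and leaving out each library.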

Additional observations from a re-analysis of the deposited data

Results flagged for a closer look

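Among the 6 libraries outside brain, a single library stood far from the others at 2 of the 10 genes examined. Chance does so in about 1 of 20 groups of 6 draws from a single normal distribution. These 6 libraries differ in organ and preservation, and all 10 genes share them. That rate therefore cannot show whether the values are unusual. In both cases it was frozen liver: Tubb3 had a level of 2.17 there, from 11 reads, and Mapt a level of 5.13, from 89 reads. The gap to the next library was 0.67 of the range for both genes.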

How the results depend on the processing

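The number of the 10 genes passing in brain against the mean of the others was 9, and 8 to 9 under every scaling, filter, offset and weight tried. Scaling by total reads was chosen after the data were seen. TMM scaling of the recovered reads gave the deposited scaling again and so tests nothing further. Without a preservation term, 3 genes passed against the mean, 0 against heart, 0 against kidney and 3 against liver. Leaving out 1 library gave 1 to 10 genes against the mean, 0 to 9 against heart, 0 to 8 against kidney and 1 to 10 against liver. It gave 0 between heart and kidney, 0 to 1 between heart and liver, 0 to 2 between kidney and liver, and 0 to 1 for FFPE against frozen. FFPE against frozen gave 2 with quantile normalization. The brain by preservation term gave 0 wherever it could be fitted, which excludes the fits without a brain library. The cause of these changes was not tested.

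Over all tested genes, 2583 passed in the brain contrast, 472 without a preservation term, 1598 without FFPE brain, 326 without frozen brain and 4291 without FFPE liver. For FFPE against frozen, 9717 passed, with 6063 and 6082 without either kidney library. The median FFPE difference over all genes was 0.18, but 0.02 with quantile normalization and 0.35 with total-read scaling, where the median of the 10 genes was 0.16 and 0.54. The differences of the 10 genes between brain and the mean of the others stayed positive under all alternatives. Between FFPE and frozen tissue the sign turned for 3 genes with quantile normalization, Mapt, Stmn2 and Gap43, none of which passed. It also turned for Mapt with total-read scaling, for Nefl and Mapt without either brain library and for Tubb3, Nefh and Gap43 without either liver library, again without passing. No paired analysis was possible because the columns carry no replicate numbers. The fit does hold a term for organ, which sets each FFPE library beside the frozen one of its organ, and a term for preservation. An edgeR test on recovered reads, listed among the alternatives, was not run. Counts of 6 to 64 reads limit Gap43 outside brain.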
